A study of Mus musculus with 8 samples.

Results

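Matrix metalloproteinases (Mmp genes) and the tissue inhibitors of metalloproteinases (Timp genes) were followed in cultured mouse fibroblasts after exposure to IFN-beta, the cytokine that starts the type I interferon response. The members were taken by gene symbol: Mmp2, Mmp3, Mmp9, Mmp10, Mmp13, Mmp14, Timp1, Timp2 and Timp3, which are 9 of the 24015 gene symbols in the count tables. All 9 were found, and 8 had enough counts to be tested. The RNA came from murine embryonic fibroblasts of age E12.5, on a C57bl/6 background, labelled wild type and at passages 15 to 18. One group of 2 libraries was made from cells given 100 units/mL of murine recombinant IFN-beta for 6 h, and its control group of 2 libraries from cells left untreated. The labels number the replicates but name no separate embryos, clones or cultures, so every p-value reflects variation among these 4 libraries only, and that variation could be technical. The series also lists 4 chromatin samples, which were not analysed here.

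Metalloproteinases are zinc enzymes that cut collagens and other proteins of the extracellular matrix. They are made as inactive precursors, and the TIMP proteins block the active enzymes by binding them tightly. Fibroblasts are a main source of both, and the balance between enzyme and inhibitor sets how fast matrix is turned over. TIMP-2 has a double role, because a complex of TIMP-2 with the membrane enzyme MMP14 also helps to activate the precursor of MMP2.

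Of the inhibitors, Timp2 rose with IFN-beta, Timp1 had nearly the same fold but a wider spread between untreated libraries and did not pass the test, and Timp3 stayed near its untreated level. Of the enzymes, no member passed the test. The gelatinase gene Mmp2 was close to its untreated level, the membrane enzyme gene Mmp14 was 1.28-fold its untreated level without passing, and Mmp3, Mmp10, Mmp13 and Mmp9 had at most 119 counts in any library.

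The libraries held 18528685 to 24817342 gene counts each. The untreated pair differed more from each other (chi-square per gene 32.3) than the IFN-beta pair did (11.5), and libraries of different groups differed by 96.1 to 155. Levels are given in CPM, counts scaled by library size with edgeR's TMM factors. The interferon response was present: Mx1, an antiviral GTPase gene, had 3088 and 4972 counts after IFN-beta, against 0 and 0 untreated. Ifit1 had a log2 fold change of 10.50 and Isg15 of 8.42. The 8 fibroblast markers were all present, with a summed level of 6403 and 6051 CPM after IFN-beta, against 4697 and 5220.5 CPM untreated, and none of them passed the test. Pdgfra alone ran against the sum, with 39.0 and 30.9 CPM after IFN-beta, against 68.1 and 39.4 CPM untreated (log2 fold change -0.62). Of the markers of neutrophils, S100a9 and Elane were at 0 in every library, as were the osteoblast markers Ibsp and Bglap. The 4 endothelial markers summed to 3.14 and 2.02 CPM after IFN-beta, against 0.936 and 1.06 CPM untreated, and did not run one way. Cdh5 had 24 and 19 counts after IFN-beta, against 2 and 6 untreated, and Kdr had 32 and 20 after IFN-beta, against 10 and 18 untreated. Pecam1 had 0 and 1 counts after IFN-beta, against 1 and 2 untreated, and Tek had 0 and 0 after IFN-beta, against 5 and 2 untreated. Cdh5 was called higher (edgeR quasi-likelihood test, adjusted p = 0.0140), but it entered the test through the treated libraries alone, so a tested Cdh5 had to be higher there. The 5 epithelial markers summed to 0.729 and 0.857 CPM after IFN-beta, against 0.468 and 1.02 CPM untreated. Their part in the members' values was not tested. In bulk RNA, fewer cells of a type and less RNA per cell cannot be told apart.

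The members' promoters fall into different kinds. RefSeq promoter windows (build GRCm38.p6, 250 bases before to 50 after the annotated start) were matched by symbol for 7 of the 9 members, all but Mmp2 and Mmp9. The 3 stretches printed here belong to Mmp3, Mmp10 and Mmp13, which lie in the metalloproteinase run of chromosome 9, and are shown because they share an AP-1 motif beside a TATA motif. AP-1 is the Fos and Jun family of factors, known to drive these genes in stimulated fibroblasts. The stretches run from base -100 to base 20 around the start, and capitals mark the AP-1 motif (TGANTCA, the same on both strands) and the TATA motif (TATAAA).
Mmp3, chr9:7445722-7445841, plus strand: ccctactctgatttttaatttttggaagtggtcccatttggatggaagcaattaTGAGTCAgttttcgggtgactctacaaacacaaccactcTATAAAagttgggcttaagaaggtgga
Mmp10, chr9:7502242-7502361, plus strand: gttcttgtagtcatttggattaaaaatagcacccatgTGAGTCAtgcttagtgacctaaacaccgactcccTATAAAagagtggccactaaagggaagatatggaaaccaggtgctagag
Mmp13, chr9:7272414-7272533, plus strand: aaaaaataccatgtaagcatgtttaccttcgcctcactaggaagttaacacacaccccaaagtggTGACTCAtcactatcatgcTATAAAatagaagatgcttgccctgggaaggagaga
Counted from the annotated start, the AP-1 match began at base -46 in Mmp3, at base -63 in Mmp10 and at base -35 in Mmp13. Between 12 and 32 bases separated it from the TATA match. An AP-1 match was present in 7.81% of the 32851 promoter windows of the same length, and AP-1 and TATA matches together in 1.54%.

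The windows of Timp1, Timp2 and Timp3 held no exact match to TGANTCA or TATAAA, and neither did that of the enzyme gene Mmp14. Sites with other letters were not searched, such as the TGAGTAA in the Timp1 window shortly before its AGGAAG at base 41. The absence of a match is therefore not the absence of an AP-1 site. The next stretches run from base -250 to base 20 and are shown because Timp2 was the member that passed the test and Timp1 had a similar fold. Capitals mark the ETS-type motif AGGAAG (searched on both strands) in Timp1 and each CG dinucleotide in Timp2. A further AGGAAG in Timp1 began at base 41, past the printed stretch. The motif does not set the inhibitors apart, because the windows of Mmp3, Mmp13, Mmp14 and Timp3 held it too. In Mmp13 a match at base -62 lies in the stretch printed above, where it is not in capitals.
Timp1, chrX:20869916-20870185, plus strand: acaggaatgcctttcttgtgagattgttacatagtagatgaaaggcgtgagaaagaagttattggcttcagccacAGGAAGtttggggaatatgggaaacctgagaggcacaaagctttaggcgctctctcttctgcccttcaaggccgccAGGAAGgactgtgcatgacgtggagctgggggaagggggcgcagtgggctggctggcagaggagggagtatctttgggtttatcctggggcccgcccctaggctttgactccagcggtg
Timp2, chr11:118355392-118355661, minus strand: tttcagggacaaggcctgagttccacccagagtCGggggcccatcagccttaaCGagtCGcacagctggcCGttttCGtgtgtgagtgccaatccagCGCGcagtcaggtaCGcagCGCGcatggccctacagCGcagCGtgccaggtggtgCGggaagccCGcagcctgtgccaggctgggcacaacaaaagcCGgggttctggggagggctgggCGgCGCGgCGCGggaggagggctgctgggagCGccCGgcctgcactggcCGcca
Timp2 held none of the 5 motifs searched in its whole window. Besides AP-1, TATA (found in 13.6% of all windows) and AGGAAG (35.4%), these were the interferon-stimulated response element (a pair of GAAA repeats with 2 bases between them, 3.44%) and the STAT element TTCNNNGAA (8.30%). Both strands were searched for all 5. Timp2 had 25 CG dinucleotides in the 300 bases and Timp3 had 24, against 8 in Timp1 and 10 in Mmp14. Mmp3 and Mmp13 had 1 each and Mmp10 had 2, where the median over promoters of tested genes was 21. Mmp13 held the only match to the interferon-stimulated response element among the 7 windows, beginning at base -146 on the opposite strand. Of the 336 tested genes with such a match, 76 were called higher and 2 lower, with a median log2 fold change of 0.12, and of the 561 tested genes with an AP-1 match 48 were called higher and 8 lower, with a median of 0.01. Over all 9079 tested genes with a window, 416 were called higher and 48 lower, and the median was -0.02. A match is a description of letters and not evidence of binding.

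Timp2 encodes the inhibitor that also assists MMP2 activation. It had 383 and 344 CPM in the IFN-beta libraries, against 207 and 232 CPM in the untreated libraries. Both treated libraries lay above both untreated ones, and the untreated libraries were close to each other. The log2 fold change was 0.73 ± 0.13 (SE; 95% interval 0.44 to 1.02), a 1.66-fold rise that passed edgeR's quasi-likelihood test (adjusted p = 0.0073). Of the 12128 tested genes, 4.73% were called higher, 0.495% lower and 5.23% in either direction. Among the 8 tested members 1 was called higher and 0 lower, too few to read against that background. The call was lost without IFN-beta replicate 1 (log2 fold change 0.65) and kept in all 10 alternatives that keep all libraries. Among these 10, the prior count of 0.5 rescales the fold only and could not change the call.

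Timp1 encodes an inhibitor of soluble metalloproteinases that is known to be inducible by growth factors and cytokines. It had 488 and 529 CPM in the IFN-beta libraries, against 249.7 and 372 CPM in the untreated libraries. The groups did not overlap, but untreated replicate 1 was well below untreated replicate 2. That untreated gap, 0.58 on the scale of log2(CPM + 0.5), was larger than in 91.0% of tested genes. Its fitted log2 fold change was 0.71 ± 0.18 (SE; 95% interval 0.31 to 1.11) and narrowly missed the threshold (edgeR quasi-likelihood test, adjusted p = 0.0529). The size of the change depended on the untreated library used, at 1.03 without untreated replicate 2 and 0.47 without untreated replicate 1. Timp1 passed in 5 of the 10 alternatives that keep all libraries. In edgeR their adjusted p-values ran from 1.8e-05 without a count filter to 0.105 when libraries were scaled by totals.

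Timp3 encodes the inhibitor that stays bound to the matrix. It had 228 and 221 CPM in the IFN-beta libraries, against 202 and 252 CPM in the untreated libraries. The treated libraries lay between the untreated ones. The fit gave a log2 fold change of -0.01 ± 0.14 (SE; 95% interval -0.32 to 0.29; edgeR quasi-likelihood test, adjusted p = 0.968). The fourth inhibitor gene, Timp4, had 0 counts in every library, which allows up to 0.168 CPM in the library with the highest limit (3 counts, counting error only).

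**Figure D1:**
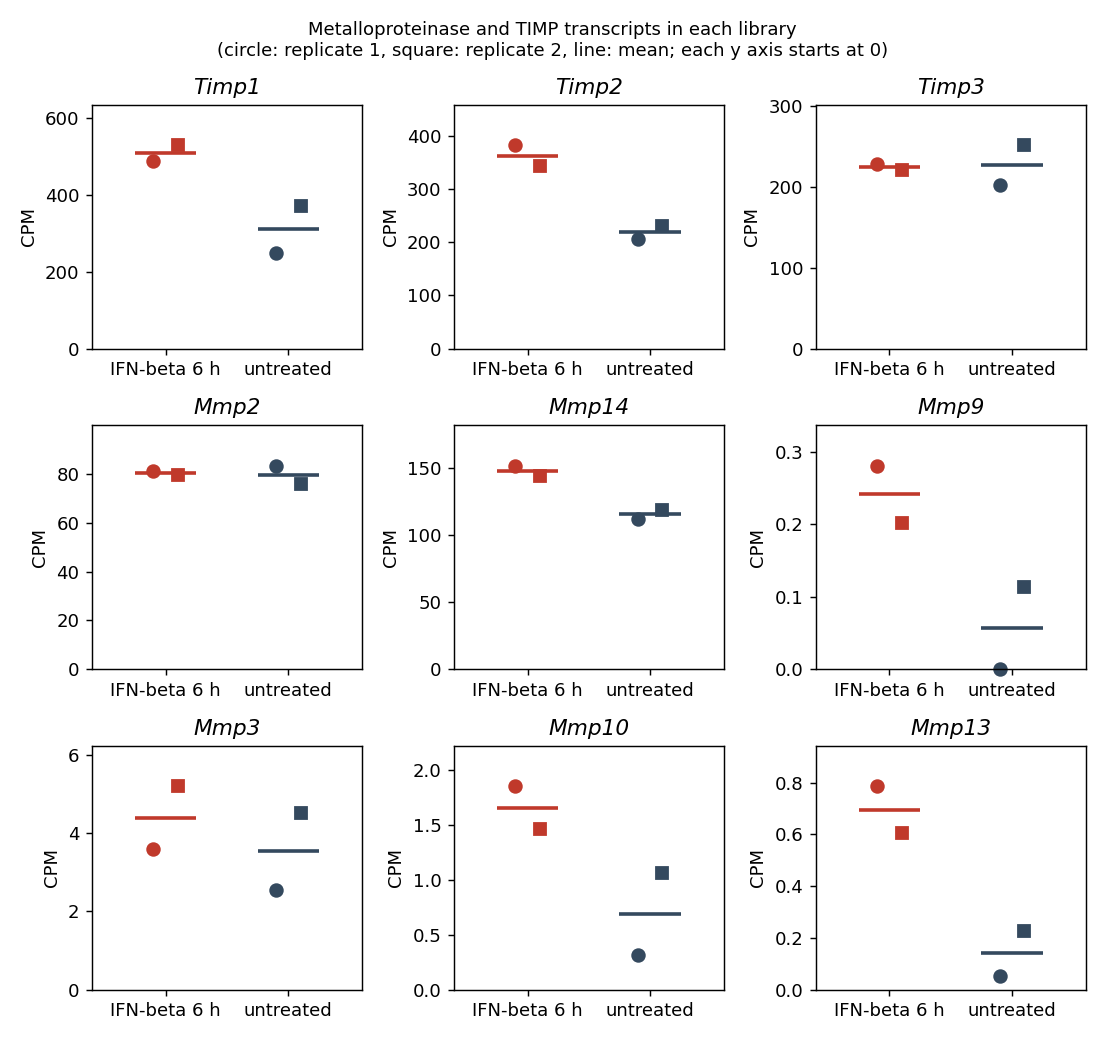
Level of each member in each library, in CPM on axes that start at 0; circles are replicate 1, squares replicate 2 and lines the group means (n = 2). Timp2 is separated between groups with close replicates, at 363 ± 27.3 CPM after IFN-beta and 219 ± 17.4 CPM untreated (SD), while Timp1 is separated with a wide untreated pair and Timp3 and Mmp2 overlap.

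In the RefSeq annotation (GRCm38.p6) the span of Timp1 lies inside that of the synapsin gene Syn1, on the opposite strand, and the span of Timp3 lies inside that of Syn3. Syn1 had 21 and 16 counts after IFN-beta, against 12 and 28 counts untreated, and Syn3 had 20 and 29 counts after IFN-beta, against 16 and 32 untreated. These host gene counts are small beside the 4804 to 10500 counts of Timp1 and the 3890 to 6642 counts of Timp3. Timp2 overlaps Cep295nl and Mmp2 overlaps Gm45472 in that annotation, and neither was matched to a symbol in the tables. Whether counting used strand is not stated, so a read shared by such a pair cannot be assigned to one gene.

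Mmp14 encodes the membrane-type metalloproteinase that cuts collagen at the cell surface and activates the MMP2 precursor. It had 152 and 144 CPM in the IFN-beta libraries, against 112 and 119 CPM in the untreated libraries. Both treated libraries were higher than both untreated ones, and each pair was tight. Its log2 fold change was 0.35 ± 0.12 (SE; 95% interval 0.08 to 0.62), which did not pass (edgeR quasi-likelihood test, adjusted p = 0.156). It passed in 0 of the 10 alternatives that keep all libraries. With 1 library left out its log2 fold change ranged from 0.32 to 0.40.

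Mmp2 encodes gelatinase A, which cuts denatured collagen and basement membrane collagen. It had 81.4 and 79.6 CPM in the IFN-beta libraries, against 83.3 and 75.8 CPM in the untreated libraries. The treated values lay within the untreated range. The log2 fold change was 0.02 ± 0.13 (SE; 95% interval -0.26 to 0.30; edgeR quasi-likelihood test, adjusted p = 0.961). Changes beyond these bounds are outside the interval, and smaller ones are not excluded. The bounds are not a limit of detection, since Mmp14 with a similar SE did not pass at a log2 fold change of 0.35.

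Mmp9 encodes gelatinase B, best known from neutrophils and macrophages. It had 5 and 4 counts in the IFN-beta libraries, against 0 and 3 counts in the untreated libraries, and was the 1 member that did not pass the expression filter. In CPM both treated libraries were above both untreated ones. Pooled over libraries, the ratio of depth-scaled counts was 3.63, with a 95% exact interval of 0.906 to 20.8 that covers counting error only. Without a count filter it had an unadjusted p of 0.131 (edgeR quasi-likelihood test, adjusted p = 0.506). Of its binding partner gene Lcn2, 0 and 2 counts were found after IFN-beta, against 0 and 0 untreated.

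Mmp3 encodes stromelysin-1, which cuts proteoglycans and activates other metalloproteinase precursors. It had 64 and 103 counts (3.59 and 5.19 CPM) in the IFN-beta libraries, against 49 and 119 counts (2.55 and 4.51 CPM) in the untreated libraries. The groups overlapped, and replicate 2 was the higher one in both groups. The untreated gap was larger than in 95.3% of tested genes and the treated gap larger than in 94.4%. Its fitted log2 fold change was 0.29 ± 0.31 (SE; 95% interval -0.39 to 0.98; edgeR quasi-likelihood test, adjusted p = 0.662), at 0.77 without untreated replicate 2 (adjusted p = 0.0315) and -0.01 without untreated replicate 1.

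Mmp10 encodes stromelysin-2, a close relative of stromelysin-1. It had 33 and 29 counts (1.85 and 1.46 CPM) in the IFN-beta libraries, against 6 and 28 counts (0.312 and 1.06 CPM) in the untreated libraries. The groups did not overlap in CPM, and untreated replicate 1 stood apart, with a gap larger than in 98.4% of tested genes. The fit gave a log2 fold change of 1.09 ± 0.44 (SE; 95% interval 0.10 to 2.09) and did not pass (edgeR quasi-likelihood test, adjusted p = 0.231). It was 2.07 without untreated replicate 2 (adjusted p = 0.0014) and 0.61 without untreated replicate 1 (adjusted p = 0.465). Without a count filter it passed (adjusted p = 0.0459), over a range from 0.0014 to 0.809 across alternatives.

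Mmp13 encodes the main fibrillar collagenase of mouse connective tissue. It had 14 and 12 counts (0.785 and 0.605 CPM) in the IFN-beta libraries, against 1 and 6 counts (0.0520 and 0.228 CPM) in the untreated libraries. The groups did not overlap, but the expression filter of 0.505 CPM in at least 2 libraries was met through the treated libraries alone, so a tested Mmp13 had to be higher there. Its log2 fold change was 1.67 ± 0.49 (SE; 95% interval 0.58 to 2.76), which did not pass (edgeR quasi-likelihood test, adjusted p = 0.0946). The pooled ratio of depth-scaled counts was 4.50 (95% exact interval 1.90 to 12.3, counting error only), larger than the fitted fold of 3.19, which is shrunk by the prior count. Mmp13 passed without a count filter (adjusted p = 0.0407), with the replicate block (0.0247) and without untreated replicate 2 (adjusted p = 0.0152), and its log2 value ran from 1.31 to 2.34 over the alternatives. The summed level of 7 chondrocyte and osteoblast markers, cell types known for Mmp13, was 23.0 and 15.5 CPM after IFN-beta, against 12.9 and 18.0 CPM untreated. Most of it was Sox9 (15.6 and 10.4 CPM after IFN-beta, against 8.63 and 11.1 untreated) and Acan (6.84 and 4.43, against 3.33 and 6.07). Col10a1 had 9 and 8 counts after IFN-beta, against 16 and 13 untreated. Col2a1 and Sp7 had at most 7 counts in a library, and Ibsp and Bglap had 0. The markers did not run one way. Their part in the result was not tested.

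**Figure D2:**
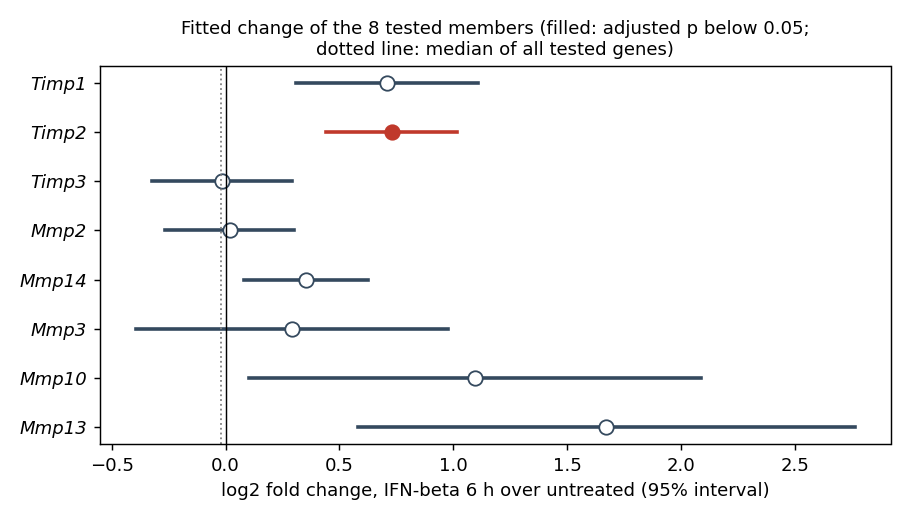
Fitted log2 fold change of the 8 tested members with 95% intervals, IFN-beta 6 h over untreated; the filled point passed the test at an adjusted p below 0.05 and the dotted line is the median of all 12128 tested genes (-0.02). The intervals of Timp3, Mmp2 and Mmp3 include 0, and those of Mmp10 and Mmp13 are the widest of the 8.

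Seen together, 5 of the 8 tested members (Timp1, Timp2, Mmp10, Mmp13 and Mmp14) had both treated libraries above both untreated ones, and 0 had both below, where 23.9% of all tested genes had both above, 26.8% had both below and 50.7% did not overlap in either direction. The median log2 fold change of the 8 was 0.53, against -0.02 for all tested genes. Mmp13, as described, could only enter the test by being higher in the treated libraries, so it is no support for this count or median. With Mmp13 set aside, the middle value is that of Mmp14 (0.35). The members were also chosen with earlier results of these data known.

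**Figure D3:**
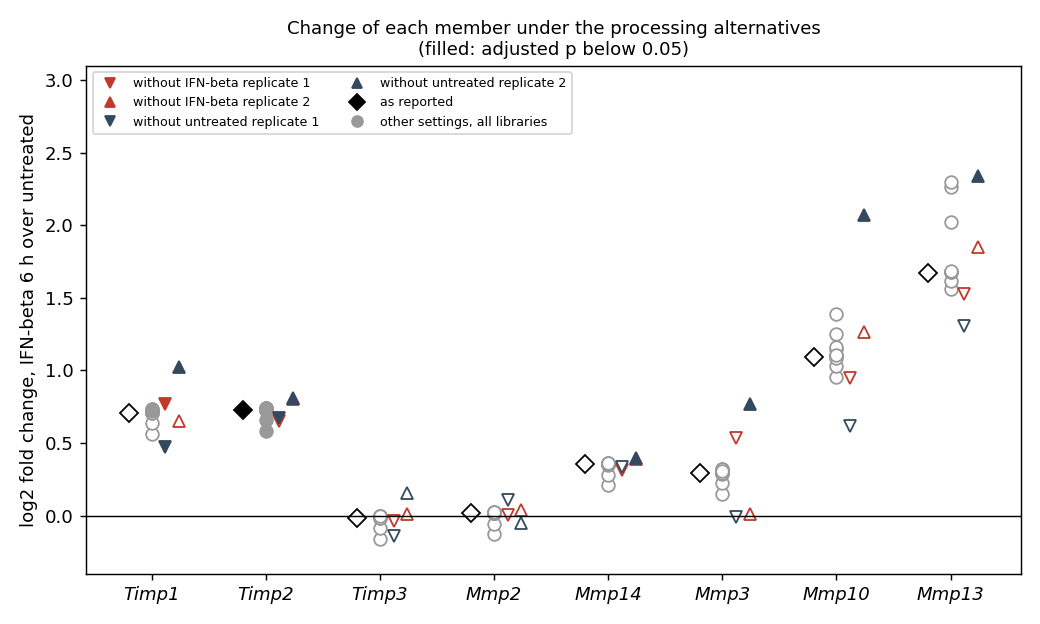
Log2 fold change of each tested member as reported (black diamonds), under the settings that keep all libraries (grey) and with 1 library left out (triangles); filled symbols passed at an adjusted p below 0.05. Timp2 stays between 0.58 and 0.81, while Mmp10 spreads from 0.61 to 2.07 and Mmp3 from -0.01 to 0.77 with the choice of untreated library.

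The run of metalloproteinase genes on chromosome 9, which holds Mmp13, Mmp12, Mmp1b, Mmp3, Mmp1a, Mmp10, Mmp8, Mmp27, Mmp20 and Mmp7 in RefSeq order, had few counts. Of these 10 genes, Mmp1a, Mmp8, Mmp27 and Mmp7 had 0 counts in every library, Mmp20 had 1 count in 1 library and Mmp1b had 0 to 4 counts. The whole run summed to 145 and 161 counts after IFN-beta, against 85 and 165 counts untreated, or 8.13 and 8.11 CPM against 4.42 and 6.26 CPM. Mmp12, the macrophage elastase gene between Mmp13 and Mmp3, had 33 and 13 counts after IFN-beta, against 27 and 10 untreated, higher in replicate 1 of both groups. Summed over 7 genes, the macrophage markers had 15.0 and 7.91 CPM after IFN-beta, against 16.1 and 9.48 CPM untreated, with 0 of 4 tested called. In the untreated pair most of the gap lay in Lyz2 (8.52 and 2.54 CPM). There Csf1r was level (5.15 and 5.19 CPM), Itgam ran the other way (0.156 and 0.228 CPM) and Fcgr1 was at 0 in both libraries. Cd68, Emr1 and Ptprc were somewhat higher in untreated replicate 1, at low levels. In the IFN-beta pair all 7 were higher in replicate 1, such as Csf1r (6.84 and 4.38 CPM) and Lyz2 (3.81 and 1.36 CPM). Between the groups the markers did not run one way. Fcgr1 had 17 and 7 counts after IFN-beta, against 0 and 0 untreated, and Lyz2 had 68 and 27 after IFN-beta, against 164 and 67 untreated. The part of these markers in the Mmp12 counts was not tested. The gene before Mmp13, Dcun1d5, which is no metalloproteinase, had a log2 fold change of -0.25 (edgeR quasi-likelihood test, adjusted p = 0.316).

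Ratios of counts within a library do not depend on how libraries are scaled, and they were used to set the members against each other. They are ratios of reads and not of molecules, because transcript lengths differ, so only their differences between libraries are read. The log2 ratio of Timp2 to Timp3, chosen after their values were seen, was 0.74 and 0.64 in the IFN-beta libraries, against 0.03 and -0.12 in the untreated libraries. The log2 ratio of Timp1 to Timp3, likewise chosen after, was 1.10 and 1.26 in the IFN-beta libraries, against 0.30 and 0.56 untreated, and both ratios were higher in both treated libraries. The log2 ratio of Timp2 to Timp1, also chosen after, was -0.35 and -0.62 after IFN-beta, against -0.27 and -0.68 untreated, and the groups overlapped.

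The enzymes were set against the inhibitors in the same way. Relative to Timp1, Mmp2 had a log2 ratio of -2.58 and -2.73 after IFN-beta, against -1.58 and -2.30 untreated. Mmp14 had -1.69 and -1.88 after IFN-beta, against -1.15 and -1.64 untreated. Mmp3 had -7.09 and -6.67 after IFN-beta, against -6.62 and -6.37 untreated. For these enzymes both treated libraries were below both untreated ones, although for Mmp14 and Mmp3 by little in the nearest pair. Mmp10 had -8.04 and -8.50 after IFN-beta, against -9.65 and -8.45 untreated, and the groups overlapped. Relative to Timp2, a comparison chosen after the values were seen, Mmp2 had -2.23 and -2.11 after IFN-beta, against -1.31 and -1.61 untreated. Mmp14 had -1.34 and -1.26 after IFN-beta, against -0.88 and -0.96 untreated. Between the membrane enzyme and its substrate, the log2 ratio of Mmp14 to Mmp2, also chosen after the values were seen, was 0.90 and 0.85 after IFN-beta, against 0.43 and 0.65 untreated. With 2 libraries against 2, an exact permutation test of such ratios cannot go below p = 0.333, so none was run.

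**Figure D4:**
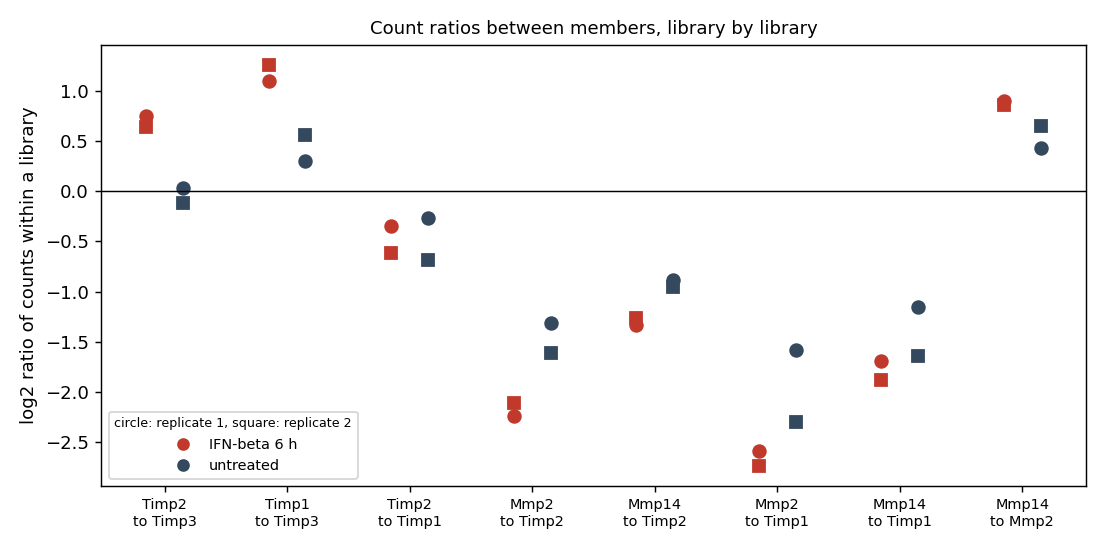
Log2 ratios of counts between members within each library, IFN-beta (red) left of untreated (dark), with circles for replicate 1 and squares for replicate 2. The Timp2 to Timp3 and Timp1 to Timp3 ratios are higher after IFN-beta, the Mmp2 and Mmp14 ratios to Timp1 and Timp2 are lower, and Timp2 to Timp1 overlaps. Of the ratios drawn, only Mmp2 and Mmp14 to Timp1 were chosen before the values were seen. The Mmp3 and Mmp10 ratios to Timp1 are not drawn, and Mmp10 to Timp1 overlaps.

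Genes around the members in the same system were grouped into lists. The counts in these lists stand beside 4.73% of all tested genes called higher, 0.495% called lower and 18.2% with an unadjusted p under 0.05. Of a list of 18 genes, made of other metalloproteinases and Timp4, 6 were tested and none was called by edgeR, with 1 of the 6 at an unadjusted p under 0.05 and a median log2 fold change of 0.01. That 1 gene was Mmp28 (epilysin), with 0.673 and 1.26 CPM after IFN-beta, against 0.260 and 0.341 CPM untreated (log2 fold change 1.42 ± 0.43 SE, adjusted p = 0.109). Both untreated values were under the filter of 0.505 CPM, so Mmp28 was tested only through the group where it was high. Its value was 0.94 without IFN-beta replicate 2. With all libraries kept it passed without a count filter (edgeR, adjusted p = 0.0469) and with the replicate block (0.0293), and had an adjusted p of 0.401 in DESeq2. Mmp19 had 5.77 and 7.56 CPM after IFN-beta, against 9.30 and 7.62 CPM untreated (log2 fold change -0.33, adjusted p = 0.452). A further 7 genes of that list, Timp4 included, had 0 counts in all libraries.

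Among the Adam and Adamts proteases, relatives that shed surface proteins or cut proteoglycans, 1 of 18 tested genes rose, none fell, and the median was 0.04. Those at an unadjusted p under 0.05 were Adamts6, Adamts14 and Adamts1 (log2 fold change 0.55). Adamts6 had 49.5 and 60.9 CPM after IFN-beta, against 32.95 and 36.8 CPM untreated (log2 fold change 0.66 ± 0.15 SE, adjusted p = 0.0323), a call lost without IFN-beta replicate 2 (adjusted p = 0.341) and when libraries were scaled by totals (0.0845) or upper quartile (0.0570). Adamts14, which trims collagen precursors, had 18.6 and 22.4 CPM after IFN-beta, against 7.74 and 14.8 CPM untreated (log2 fold change 0.85 ± 0.27 SE, adjusted p = 0.120). Leaving out untreated replicate 1 gave 0.49 and leaving out untreated replicate 2 gave 1.40. With all libraries kept it passed in DESeq2 (adjusted p = 0.0399), and in edgeR without a count filter (0.00017) and with the replicate block (0.0024). When libraries were scaled by totals the edgeR adjusted p was 0.157.

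The list of activation, docking and clearance genes had 13 tested members and 0 calls by edgeR, with 1 at an unadjusted p under 0.05 and a median of 0.07. Itgb3, an integrin chain, had 28.5 and 31.9 CPM after IFN-beta, against 7.95 and 22.6 CPM untreated (log2 fold change 0.96 ± 0.36 SE, adjusted p = 0.192). Leaving out untreated replicate 1 gave 0.44 and leaving out untreated replicate 2 gave 1.91. With all libraries kept Itgb3 passed only without a count filter (edgeR, adjusted p = 2.3e-06) and with the replicate block (0.00026). In DESeq2 the adjusted p was 0.639. Cav1, which organises caveolae, had 534 and 480.2 CPM after IFN-beta, against 804 and 534 CPM untreated (log2 fold change -0.40 ± 0.18 SE, adjusted p = 0.288). Without untreated replicate 1 it was -0.051, and without untreated replicate 2 it was -0.67. No alternative that keeps all libraries called it. Of the other protease inhibitors, 5 were tested and none was called or had an unadjusted p under 0.05, with a median of -0.02. Serpinb2, an inhibitor of plasminogen activators, had 48.2 and 38.0 CPM after IFN-beta, against 10.4 and 38.0 CPM untreated (log2 fold change 0.81 ± 0.43 SE, adjusted p = 0.352). Leaving out untreated replicate 1 gave 0.20 and leaving out untreated replicate 2 gave 2.03. With all libraries kept Serpinb2 passed only without a count filter (edgeR, adjusted p = 3.2e-05) and with the replicate block (0.0037). In DESeq2 the adjusted p was 0.820. As in Timp1, Mmp3 and Mmp10, untreated replicate 1 was the lowest library for Itgb3 and Serpinb2.

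Transcription factor genes tied to AP-1 and ETS sites had 15 tested members, of which 2 rose and none fell, with a median of 0.24. Those at an unadjusted p under 0.05 were the 2 called genes and Jun (log2 fold change 0.61). Ets2, an ETS family factor, had 59.97 and 53.2 CPM after IFN-beta, against 31.65 and 39.8 CPM untreated (log2 fold change 0.66 ± 0.15 SE, adjusted p = 0.0363). Stat3, a factor activated by cytokine receptors, had 62.9 and 63.0 CPM after IFN-beta, against 43.8 and 38.3 CPM untreated (log2 fold change 0.62 ± 0.13 SE, adjusted p = 0.0256). The Ets2 call was lost when libraries were scaled by their totals (adjusted p = 0.0878) or upper quartile (0.0564), and without IFN-beta replicate 1 (0.297). The Stat3 call was lost when scaled by totals (0.0660) or upper quartile (0.0506), without IFN-beta replicate 1 (0.171) and without IFN-beta replicate 2 (0.142). Of 15 tested matrix substrates 2 rose and none fell, with a median of 0.29. These were the glycoprotein genes Tnc, with 2149.9 and 2071 CPM after IFN-beta, against 649 and 1294 CPM untreated, and Thbs1, with 2527 and 2072 CPM after IFN-beta, against 734 and 1441 CPM untreated. Tnc had a log2 fold change of 1.12 ± 0.26 SE (adjusted p = 0.0368) and Thbs1 of 1.08 ± 0.27 SE (adjusted p = 0.0477); both were named because earlier results of these data had called them. They are the list's only calls, so its count is no separate support for their direction. Also at an unadjusted p under 0.05, but not called, were Col4a1, Col4a2, Fn1 and Bgn (log2 fold changes 0.38 to 0.54). In all of these, Tnc and Thbs1 included, untreated replicate 1 was the lowest library. Without it Tnc was at 0.73 and Thbs1 at 0.70, and without untreated replicate 2 Tnc was at 1.70 and Thbs1 at 1.65. The Tnc call was lost in DESeq2 (adjusted p = 0.190) and when libraries were scaled by totals (0.0719) or upper quartile (0.0507). The Thbs1 call was lost in DESeq2 (0.238), by totals (0.0827), by upper quartile (0.0618) and under the stricter filter of 1 CPM (0.0509). Across the 6 lists, no gene was called when libraries were scaled by totals or upper quartile. Counts of calls in the lists with 1 library left out are not read, because a group is then a single library.

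**Figure D5:**
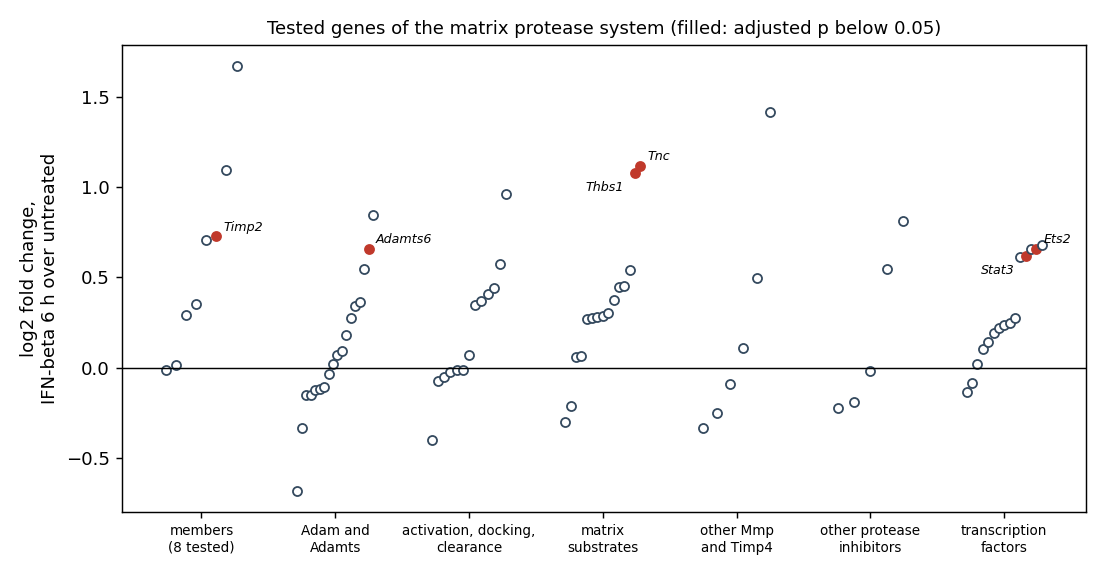
Log2 fold change of each tested gene, IFN-beta 6 h over untreated, for the members and for 6 lists of the matrix protease system; filled points passed at an adjusted p below 0.05 and are named. The 6 named genes lie between 0.62 and 1.12, and most points of every list are open.

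For each tested member, the 2 other genes with the closest pattern were taken from 8243 genes with a mean level of at least 10 CPM, by the root mean square difference of centred log2(CPM + 0.5) over the 4 libraries. The 0.5 added flattens the patterns of Mmp13 and Mmp10, whose levels are near it. Timp2 was closest to Cnot6l (0.022) and Stx11 (0.029), and 74 genes lay within 0.1. Timp1 was closest to Tmem171 (0.028) and Fam131b (0.044), with 22 genes within 0.1. Timp3 was closest to Prkar2a (0.0097) and Csrp2 (0.014), and Mmp2 to Ybx1 (0.0035) and Dbt (0.0053), with 1208 and 2053 genes within 0.1 of these nearly flat members. Mmp14 was closest to Dcakd (0.011) and Sh3bp4 (0.016), with 695 genes within 0.1. Mmp13 was closest to Ccdc6 (0.021) and Usp42 (0.038), Mmp3 to Gadd45b (0.065) and Ier5l (0.066), and Mmp10 to Arhgap31 (0.061) and Gse1 (0.067), where few genes lay within 0.1 (29, 4 and 4). With 4 libraries in 2 groups, these likenesses describe the libraries alone.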

How the data were processed

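Read counts per gene symbol were deposited by the authors as 1 raw table for each RNA-seq library. The submitters' processing notes name TopHat2 2.0.13, HTSeq 0.7.2 and build mm9. Neither annotation nor strandedness is given in the sources used here. Total RNA was extracted with Trizol and made into TruSeq libraries, per the labels' protocols. The 5 summary lines, 57.3% to 61.3% of records, were removed before scaling and testing.

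All 24015 genes entered 1 fit in edgeR 4.0.16 (R 4.3.3): TMM scaling, default expression filter (minimum count 10, minimum total 15), quasi-likelihood F tests with group as the only term, and Benjamini-Hochberg adjustment over 12128 tested genes, with a call at 0.05. Standard errors are the size of the log2 fold change over the square root of F, and intervals are 95% from the t distribution. Counting intervals and limits of 3 counts cover counting error only.

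Members and gene lists were chosen with earlier results of these data known. Named are all members, each list's called genes (otherwise its 2 smallest p-values), response checks, neighbours and likest genes. Also named are genes at an unadjusted p under 0.05 in the lists with a call. Of the genes so named, 2 are not reported here. Alternatives were other scalings, filters and prior count, DESeq2 1.42.0, limma-voom 3.58.1, a replicate block, omission of Rn45s, Lars2 and Mir6236, and each library left out. The other prior count (0.5) leaves every p-value as reported, so it could not change a call. Promoters came from RefSeq (GRCm38.p6), matched by symbol, and no count was read by coordinates.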

Additional observations from a re-analysis of the deposited data

How the results depend on the processing

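Of the 60 genes called lower and 574 called higher, the lower count moved to 350 with total library size, 128 with upper quartile scaling, 381 without a count filter, 95 with DESeq2 and 155 with the replicate block, and ranged from 24 to 1728 with 1 library left out. The higher count moved to 863 without a count filter and ranged from 470 to 1885 with 1 library left out. Without untreated replicate 2 the counts were 1885 higher and 1728 lower, without untreated replicate 1 they were 861 higher and 227 lower, and without IFN-beta replicate 1 they were 470 higher and 24 lower. Scaling by total library size put the median change over tested genes at -0.16 (log2), against -0.02 as reported. Members called higher numbered 1 as reported, 4 without a count filter, 3 with the replicate block, 2 each with DESeq2, limma-voom and the omission of Rn45s, Lars2 and Mir6236, and 1 to 6 with 1 library left out (6 without untreated replicate 2, 2 without untreated replicate 1). No member was called lower in any alternative.

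Timp1 passed at a log2 fold change of 0.71 without a count filter, 0.72 with DESeq2, 0.74 with limma-voom, 0.74 with the replicate block and 0.72 without Rn45s, Lars2 and Mir6236, and ranged from 0.47 to 1.03 with 1 library left out. Timp2 ranged from 0.65 to 0.81 there, Mmp14 from 0.32 to 0.40, Mmp10 from 0.61 to 2.07, Mmp13 from 1.31 to 2.34, Mmp3 from -0.0091 to 0.77, Mmp2 from -0.050 to 0.11 and Timp3 from -0.14 to 0.15. Mmp10 passed without a count filter (1.10), and Mmp13 without a count filter (1.68) and with the replicate block (1.68). Mmp2 turned to -0.13 with total library size and -0.056 with upper quartile scaling. The signs of Mmp3 (-0.0091 without untreated replicate 1), Mmp2 (-0.050 without untreated replicate 2) and Timp3 (0.011 without IFN-beta replicate 2, 0.15 without untreated replicate 2) turned near 0. The cause was not tested.

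The labels do not say that same-numbered libraries of the 2 groups belong together, so the replicate block has no basis in a known pairing. Over genes, the deviations of same-numbered libraries had a correlation of -0.088. With 2 libraries in a group this is a single value for both replicate numbers and cannot settle a pairing. Leaving a library out reduces its group to 1, whose spread is then assumed equal to that of the other group. Mmp9, Mmp10 and Mmp13 rest on 0 to 33 counts in a library. The counting interval of the pooled ratio includes 1 for Mmp9 (0.906 to 20.8) and not for Mmp10 (1.43 to 3.46) or Mmp13 (1.90 to 12.3), and it leaves out the spread between libraries.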
